A study of Mus musculus with 16 samples.

Results

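Genes of fat storage and fat cell secretion were followed across mouse ventricles that differed in reproductive state and in the natriuretic peptide receptor gene Npr1. Adipoq, Retn, Cfd, Cidec, Plin1, Car3, Pck1, Cidea, Plin4 and Fabp4 are 10 of the 21154 genes with a named probe on the array, and 12 probes read them (Retn and Cidec had 2 each). The genes were chosen by values measured on these arrays. Every comparison below counts as used in that choice, so the levels and differences of the 10 genes below are a description, without a test of their own. Where a gene had more than 1 probe, the brighter one by its mean stands for it. Levels are log2 of the probe's processed signal minus log2 of that array's 75th percentile, so a level of 0 lies at the 75th percentile and a step of 1 is a doubling. Arrays are compared within a probe, never a probe with another probe.

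RNA came from the ventricles of 16 female mice, 1 mouse on each one-colour Agilent array, in 4 groups of 4 independent mice. The wild-type groups (Npr1+/+) were nulliparous or had lactated for 2 weeks, and the knockout groups (Npr1-/-) were again nulliparous or 2 weeks into lactation. The labels name the knockout only by that genotype, and ages, strain, parity before lactation, litter size and whether surface fat was trimmed from the ventricles are not given in the sources used here. Npr1 encodes the guanylyl cyclase receptor for the natriuretic peptides that the heart releases.

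White adipocytes keep triglyceride in a single large droplet, and the proteins of that droplet and of its filling mark the cell. Perilipin 1 coats the droplet and restrains lipolysis, CIDEC joins droplets into larger ones, and adiponectin, resistin and adipsin are hormones or serum proteins that white fat secretes. Fat lies on the surface of the heart and along its vessels, so ventricular RNA can hold transcripts of fat cells. Heart muscle and its capillaries also handle fatty acids with relatives of these proteins, such as the fatty acid carrier FABP4 of capillary endothelium. In such bulk RNA, fewer cells of a type and less RNA per cell cannot be told apart.

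The 75th percentile of the signal, which sets the scale of an array, was 278 to 347 on lactating arrays and 165 to 221 on nulliparous arrays, apart from nulliparous knockout replicate 4 at 284. That array also stood with the lactating ones in the authors' deposited log2 table, where its median of -0.303 fell within their range of -0.382 to -0.243 while the other nulliparous medians were -0.0989 to 0.0318. Its Pln level of 7.13, C1qa of 2.34 and Lpin1 of 2.78 lay apart from the other nulliparous arrays (at most 6.04, 0.74 and 1.52) and at or near the lactating ranges of 7.04 to 7.56, 2.57 to 3.16 and 2.70 to 3.34. Other genes did not stand there. Its Sfrp5 level of -0.40 was near the other nulliparous arrays (-0.27 to 0.90) and far from the lactating range of -3.45 to -2.06. Its Angptl4 level of 2.99 lay between the other nulliparous arrays (at least 3.40) and the lactating ones (at most 2.68). Whether its label is right could not be settled from these files, which bears on every nulliparous knockout mean, SD and difference below. Between 48.5% and 58.6% of the 55681 probes were well above background on an array. A probe well above background had a level of at least -5.99 to -3.57 on nulliparous arrays and -4.97 to -4.27 on lactating arrays. For 4397 genes below background on all 16 arrays the median level was -5.87 in nulliparous wild-type, -6.15 in nulliparous knockout, -6.48 in lactating wild-type and -6.43 in lactating knockout hearts. A level near those values is a bound. Npr1 was read by a probe near background (above it on 9 of 16 arrays, group means of -4.11 to -3.91), and where it lies with respect to the deletion is not known here, so it checks nothing about the genotypes, which rest on the labels. The 9 cardiomyocyte markers, Myh6, Tnnt2, Tnni3, Myl2, Myl3, Actc1, Ryr2, Pln and Nkx2-5, were above background on every array. Their summed linear level was 7670 to 9190 in nulliparous wild-type, 7340 to 9870 in nulliparous knockout, 6980 to 7500 in lactating wild-type and 6020 to 6850 in lactating knockout hearts. Limma called 2 of the 9 higher and 3 lower in wild-type lactation, 2 higher and 6 lower in knockout lactation, and 0 between genotypes in either state. The lactating knockout sums, like the dim genes, were thus the lowest, and the part of that shift in their differences was not tested.

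Signal strength separated the genes. Cidea gave processed signals of 6040 to 10123, Plin4 of 14487 to 42196 and Fabp4 of 40906 to 84535, and these 3 bright genes were above background everywhere. The other 7 were dimmer, and of these Cfd alone was above background on all 16 arrays. All 10 genes passed the filter, which asks that some group have a signal well above background in each of its 4 mice, but 6 of the dim genes were above background on fewer than 16 arrays. Adipoq, Retn, Cidec, Plin1 and Pck1 passed through the wild-type groups only, and Car3 also through the nulliparous knockout group. Counts over the 10 genes are thus given as description.

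Promoter sequences of 3 dim genes are shown because the dim genes shared an order of groups. For Cidec and Plin1 a window was shown only if it held a motif searched below. RefSeq windows of assembly GRCm38.p6, from 250 bases before to 50 bases after a transcript start, matched 7 of the 10 genes (6 dim genes and Plin4) with 8 windows. They are shown in lower case, 5′ to 3′ on the gene's strand, for Cidec (minus strand), Plin1 (minus strand) and Adipoq (plus strand), with capitals marking TTGCNNAA, a motif read by C/EBP proteins, the transcription factors of fat cell differentiation.
Cidec, chr6:113434715-113435014: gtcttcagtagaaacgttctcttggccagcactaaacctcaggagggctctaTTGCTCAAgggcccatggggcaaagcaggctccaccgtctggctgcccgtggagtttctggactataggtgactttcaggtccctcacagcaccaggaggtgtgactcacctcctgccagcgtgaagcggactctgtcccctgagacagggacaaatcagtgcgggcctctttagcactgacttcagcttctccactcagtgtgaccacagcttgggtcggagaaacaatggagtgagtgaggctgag
Plin1, chr7:79732727-79733026: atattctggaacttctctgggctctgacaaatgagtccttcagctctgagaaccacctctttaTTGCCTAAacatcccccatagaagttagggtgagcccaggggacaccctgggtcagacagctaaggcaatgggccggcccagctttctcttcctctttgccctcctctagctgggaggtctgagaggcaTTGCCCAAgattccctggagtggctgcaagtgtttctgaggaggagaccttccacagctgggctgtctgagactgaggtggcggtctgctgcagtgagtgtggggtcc
Adipoq, chr16:23146286-23146585: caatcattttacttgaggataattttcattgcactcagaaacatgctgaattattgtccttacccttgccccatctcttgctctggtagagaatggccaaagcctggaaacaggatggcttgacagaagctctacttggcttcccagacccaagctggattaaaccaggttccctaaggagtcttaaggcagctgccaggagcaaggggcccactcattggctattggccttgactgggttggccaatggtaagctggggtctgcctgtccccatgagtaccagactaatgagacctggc
TTGCNNAA was searched on both strands and occurred in 2 of the 8 windows, against 10.8% of 32851 RefSeq windows of the same length. Counted from the transcript start, its first base lay at -198 in Cidec and at -187 and -58 in Plin1. The spaced direct repeat bound by PPAR with RXR, searched as 1 fixed consensus, occurred in 0 of the 8 windows and in 0.0396% of all windows. TATAAA occurred in 0 of the 8 and in 13.6% of all. The Adipoq window held none of the 3 motifs. A match or its absence describes these letters in these windows only.

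In lactating mice the 7 dim genes were lower in knockout than in wild-type hearts, by 2.20 to 4.67 on the log2 scale as read, and in each of them all 4 knockout arrays lay below all 4 wild-type arrays. In lactating knockout hearts Cidec and Pck1 were above background on 0 of 4 arrays, Adipoq and Plin1 on 1, Car3 on 2 and Retn on 3, so background limits these differences and their order. Across all tested genes the 4 lactating knockout arrays lay below the 4 wild-type arrays for 4.54%, and limma called 0.199% of genes (28) in either direction. Since the genes were chosen with this contrast known, nothing is read from that count. The 28 calls became 48 without nulliparous knockout replicate 4, 16 without nulliparous wild-type replicate 1, 18 without lactating wild-type replicate 2 or lactating knockout replicate 1, and 13 without lactating knockout replicate 4. In nulliparous mice the same 7 were lower in knockout hearts by 0.81 to 2.14, with no overlap for 5 of them (Adipoq, Cfd, Cidec, Plin1 and Car3) against 0.825% of all genes, and limma called 0.0996% of genes (14). These 14 calls became 7 without nulliparous wild-type replicate 1, 2 or 4, 8 without nulliparous knockout replicate 3 and 9 without lactating knockout replicate 3. Without nulliparous knockout replicate 4, 6 of the 7 dim genes did not overlap, with Pck1 added. The 3 bright genes differed between genotypes by -0.43 to 0.22 in either state, and their groups overlapped. The median difference over the 10 genes was -3.69 in lactating and -1.36 in nulliparous mice, beside -5e-04 and 0.05 over the 14063 genes tested. Without nulliparous knockout replicate 4 the nulliparous median was -1.57, and the nulliparous genotype difference was -2.06 for Adipoq, -1.02 for Retn, -2.45 for Cfd, -1.94 for Cidec, -1.60 for Plin1, -1.89 for Car3 and -1.54 for Pck1.

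**Figure D1:**
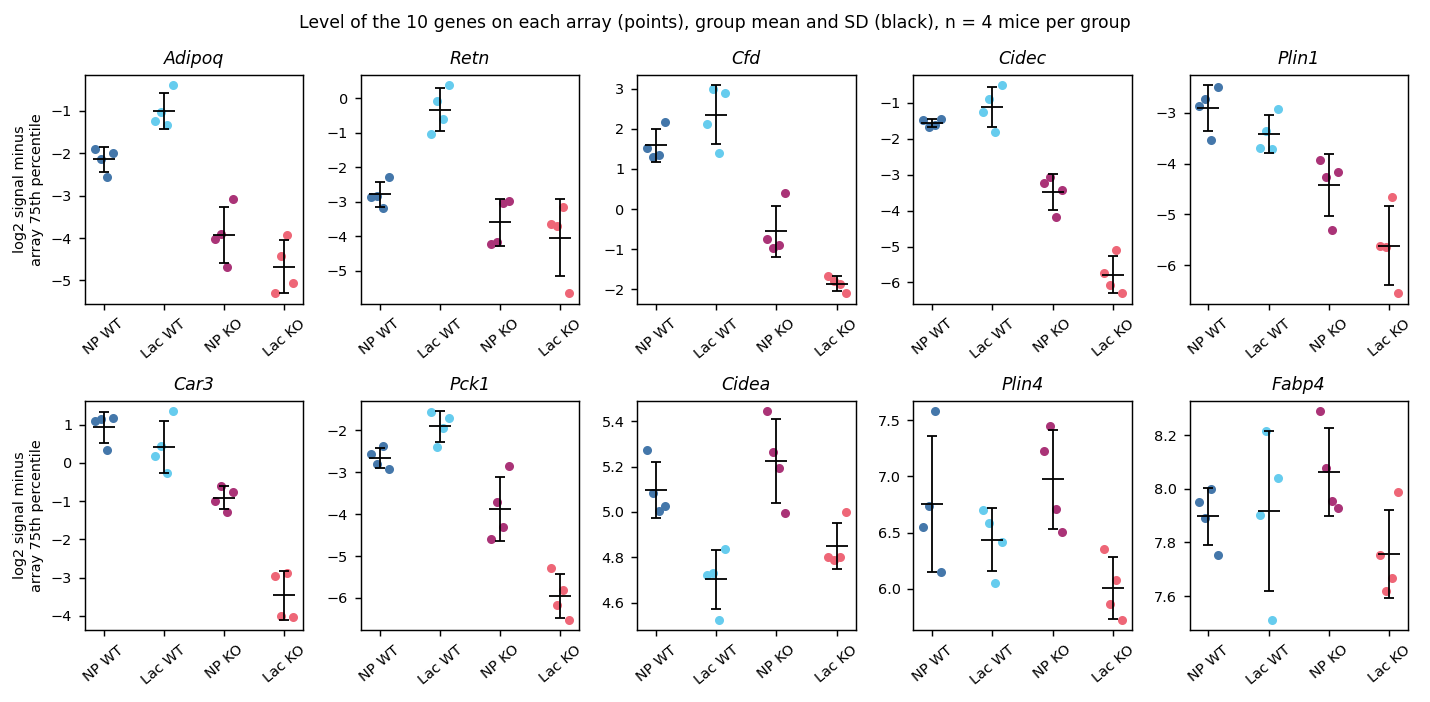
Level of each of the 10 genes on every array, on a log2 scale where 0 is the 75th percentile of its array, in nulliparous (NP) and lactating (Lac) wild-type (WT) and Npr1 knockout (KO) mice. Points are mice and black lines the mean and SD of 4 mice. The 7 dim genes, Adipoq to Pck1, have their lowest group mean in lactating knockout hearts, while the points of Cidea, Plin4 and Fabp4 each span under 2 log2 units.

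Adipoq encodes adiponectin, a hormone secreted by adipocytes. It read -1.89, -2.13, -2.56 and -2.0 in nulliparous and -1.23, -1.03, -1.33 and -0.39 in lactating wild-type replicates 1 to 4. In knockout hearts it read -4.02, -3.91, -4.68 and -3.09 before and -5.30, -4.43, -3.92 and -5.07 during lactation, and only 1 of 4 arrays was above background in each of these groups. Wild-type groups did not overlap each other and both lay wholly above the knockout groups, which overlapped. Group means ± SD (n = 4) were -2.14 ± 0.29, -0.99 ± 0.42, -3.92 ± 0.65 and -4.68 ± 0.63 in the same order. The knockout difference was -1.78 ± 0.34 (SE) in nulliparous and -3.69 ± 0.34 in lactating mice, where 3 of 4 knockout readings were not above background. Lactating minus nulliparous was 1.15 in wild-type and -0.76 in knockout mice, and -0.48 in the latter without nulliparous knockout replicate 4.

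Retn encodes resistin, which mouse adipocytes secrete. Its brighter probe read -2.85, -2.83, -3.18 and -2.29 in nulliparous wild-type hearts, and -1.05, -0.08, -0.62 and 0.38 in lactating ones. It read -4.22, -4.18, -3.03 and -2.97 in nulliparous and -3.64, -3.71, -3.16 and -5.66 in lactating knockout hearts, with 2 and 3 of 4 arrays above background. The lactating wild-type arrays lay above the 12 others, and among the other 3 groups the arrays overlapped. Retn had the widest difference of the 10 genes between lactating and nulliparous wild-type hearts, 2.45 ± 0.48 (SE) or 5.45-fold. Its knockout difference was -0.81 ± 0.48 in nulliparous and -3.70 ± 0.48 in lactating mice. The lactation difference within knockout mice, -0.44, was 0.52 on slide 1, -1.41 on slide 2 and -0.23 without nulliparous knockout replicate 4, and has no settled direction. A further Retn probe gave -1.06 and -3.79 for the same knockout differences and 2.82 for lactation in wild-type mice.

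Cfd encodes adipsin (complement factor D), a serine protease made in bulk by fat. Wild-type levels were 1.51, 1.30, 1.35 and 2.18 before lactation and 2.12, 2.98, 1.41 and 2.90 during it. Knockout levels were -0.74, -0.97, -0.89 and 0.39 before and -1.67, -1.80, -1.86 and -2.10 during lactation. As the only dim gene above background on all 16 arrays, Cfd has no bounded value, and no knockout array reached any wild-type array. The lactating knockout group was also wholly below the nulliparous knockout group. The differences were -2.14 ± 0.35 (SE) between genotypes in nulliparous mice, -4.21 ± 0.35, an 18.6-fold lower level, in lactating mice, and -1.31 ± 0.35 for lactation in knockout mice. Without nulliparous knockout replicate 4, which at 0.39 was 1.26 above the mean of the other 3, the first and last were -2.45 and -0.99.

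Cidec encodes the droplet fusion protein of white fat and Plin1 the droplet coat, the 2 genes whose promoters hold TTGCNNAA above. Cidec read -1.48, -1.68, -1.61 and -1.47 in nulliparous and -1.26, -0.90, -1.82 and -0.51 in lactating wild-type hearts. In knockout hearts it read -3.22, -3.06, -4.19 and -3.43 before lactation, with 3 of 4 arrays above background, and -5.72, -6.06, -5.10 and -6.28 during it, with 0 of 4. The knockout groups were separate from each other and from both wild-type groups, which overlapped. The lactating knockout level has only a bound. It takes for each dim array the higher of its lowest probe above background and the reading itself. At that bound Cidec was 11.1-fold lower there than in lactating wild-type hearts, and 2.17-fold lower than in nulliparous knockout hearts. Car3 read above that lowest probe on all 4 lactating knockout arrays, yet was above background on only 2 of 4. Neither fold is thus a strict lower limit. The measured differences were -4.67 ± 0.30 and -2.31 ± 0.30 (SE), and the nulliparous genotype difference was -1.92 ± 0.30. A further Cidec probe was above background on 2 of 16 arrays, both of lactating wild-type hearts.

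Plin1 encodes perilipin 1, through which lipolytic signals reach the droplet. It read -2.87, -2.72, -3.54 and -2.48 in nulliparous and -3.69, -3.36, -3.70 and -2.92 in lactating wild-type hearts. Knockout arrays gave -3.93, -4.26, -5.31 and -4.16 in nulliparous and -5.63, -5.64, -4.65 and -6.56 in lactating mice, with 2 and 1 of 4 above background. Both states within a genotype overlapped, and all 8 knockout arrays lay below all 8 wild-type arrays. The genotype differences were -2.20 ± 0.37 (SE) in lactating and -1.52 ± 0.37 in nulliparous mice. With normexp background correction, which lifts dim signals, they were -0.59 and -0.36.

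Car3 encodes carbonic anhydrase 3, abundant in adipocytes and in slow skeletal muscle. Its levels were 1.08, 1.15, 0.33 and 1.17 in nulliparous and 0.17, 0.43, -0.26 and 1.35 in lactating wild-type hearts. The nulliparous knockout arrays gave -0.98, -0.60, -1.29 and -0.75, and the lactating ones -2.95, -4.00, -2.88 and -4.03, of which 2 of 4 were above background. Each knockout group was apart from every other group, and the wild-type groups overlapped. Lactation went with a difference of -2.56 ± 0.34 (SE) in knockout mice (-2.51 without nulliparous replicate 4) and of -0.51 ± 0.34 in wild-type mice. The genotype differences were -1.84 ± 0.34 and, in lactating mice, -3.89 ± 0.34. Of the skeletal muscle markers, Myh1, Myh4 and Actn3 were below background on all 16 arrays, and the summed linear level of all 7 was 0.436 to 0.767 in lactating wild-type and 0.496 to 0.697 in lactating knockout hearts, after 0.773 to 1.07 and 0.676 to 1.23 in nulliparous ones. Pvalb, a calcium buffer of fast muscle, was above background on all 16 arrays and fell in lactation by 0.93 ± 0.27 in wild-type and by 0.97 ± 0.27 in knockout mice (limma's adjusted p = 0.0114 and 0.0111). Mylpf and Tnnt3, the other markers tested, were not called in either genotype. The list holds no marker of slow muscle, and the part of skeletal muscle in the Car3 level was not tested.

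Pck1 encodes cytosolic phosphoenolpyruvate carboxykinase, which in fat supplies glycerol for triglyceride and in liver makes glucose. Wild-type arrays read -2.56, -2.81, -2.38 and -2.91 in nulliparous and -1.56, -2.40, -1.95 and -1.71 in lactating mice. Knockout arrays read -4.60, -3.71, -4.30 and -2.86 in nulliparous mice and -5.28, -6.17, -5.81 and -6.52 in lactating mice, where 0 of 4 were above background. Nulliparous knockout replicate 4 overlapped the nulliparous wild-type arrays, and the lactating knockout arrays were below all others. At the bound described for Cidec, Pck1 was 6.47-fold lower in knockout than in wild-type hearts during lactation. Between lactating and nulliparous knockout hearts that fold was 1.66, but the nulliparous group was itself above background on only 2 of 4 arrays. Neither fold is a strict lower limit. The nulliparous genotype difference was -1.20 ± 0.34 (SE), and -1.54 without replicate 4. Of the 5 liver markers, Alb and Apoa1 were below background on all 16 arrays, while the serum proteins Serpina1a and Ttr were above it on 14. Both rose in wild-type lactation, by 2.35 ± 0.60 and 1.24 ± 0.31 (SE, limma's adjusted p = 0.00503 and 0.00459), with 2 and 3 of 4 nulliparous wild-type arrays above background. Limma called 0 of them in knockout lactation or between genotypes. Nulliparous and lactating means of Serpina1a were -4.084 and -1.734 in wild-type and -2.155 and -1.858 in knockout hearts. For Ttr they were -3.819 and -2.584, and -3.722 and -3.41. The part of these markers in the Pck1 level was not tested.

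The group order was shared by the dim genes. Adipoq, Retn, Cfd, Cidec and Pck1 had their highest mean in lactating wild-type hearts, and Plin1 and Car3 in nulliparous wild-type hearts. In all 7 the nulliparous knockout mean came next to last and the lactating knockout mean last. The wild-type groups, neighbours in that order, overlapped except for Adipoq and Retn. The nulliparous groups overlapped for Retn and Pck1, and the knockout groups for Adipoq, Retn and Plin1. The further Retn probe placed the knockout means the other way, at -4.31 in nulliparous and -4.23 in lactating hearts. The order of Retn's and other means near background is as read. Over both states together, the 8 knockout arrays lay below the 8 wild-type arrays for Adipoq, Cfd, Cidec, Plin1 and Car3, against 0.0427% of the 14063 genes, and without nulliparous knockout replicate 4 for Pck1 too, against 0.0569%. These shares are 6 and 8 genes, 5 and 6 of them the dim genes themselves, so nothing is read from the comparison. The lactation difference was lower in knockout than in wild-type mice for all 7, by 0.69 (Plin1) to 2.89 (Retn). Limma called 0.0924% of all genes (13) for that interaction, and 20 without nulliparous knockout replicate 4. Within slide 1 the lactating genotype differences of the dim genes ran from -4.81 (Cidec) to -2.11 (Plin1), and within slide 2 from -4.53 (Cidec) to -2.30 (Plin1).

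**Figure D2:**
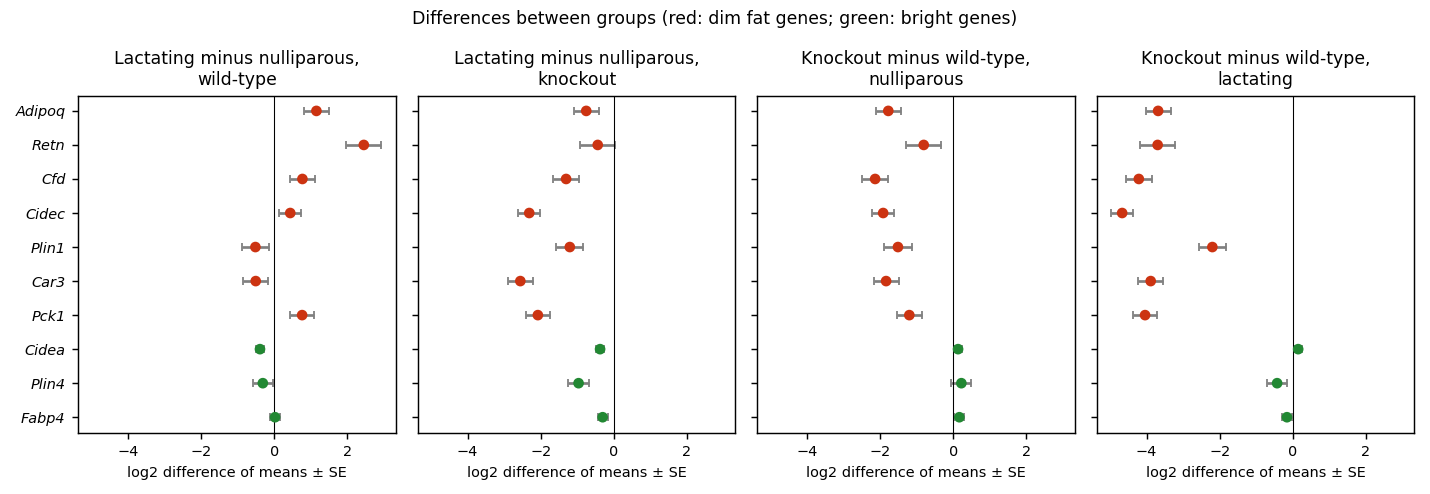
Log2 difference of group means with its standard error for the 10 genes, in 4 pairwise comparisons. The red points of the dim genes lie below 0 for knockout minus wild-type in both states, from -2.14 to -0.81 in nulliparous and from -4.67 to -2.20 in lactating mice, and the green points of Cidea, Plin4 and Fabp4 lie near 0. The lactating knockout levels of Cidec and Pck1 are bounds, so their differences are as measured near background.

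The lactation comparisons of the 10 genes have a wide background, since limma called 50.3% of all genes in wild-type and 44.1% in knockout mice (6202 genes, and 7493 without nulliparous knockout replicate 4). Lactating arrays were wholly above nulliparous arrays in wild-type mice for 2 of the 10 genes, Adipoq and Retn, where the share of all genes was 30.4%, and wholly below for Cidea, where it was 17%. In knockout mice they were wholly below for 5 genes, Cfd, Cidec, Car3, Pck1 and Plin4, against 14.1% of all genes. The 4 dim genes among them were the same without nulliparous knockout replicate 4. The median difference of the 10 genes was 0.23 in wild-type and -1.08 in knockout mice, beside 0.10 and 0.06 for all genes. Between the same groups the median level of the 4397 genes below background on all arrays differed by -0.61 in wild-type and -0.27 in knockout mice, and its part in the differences of the dim genes was not tested.

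Cidea, known from brown fat as a relative of CIDEC on the droplet, was bright in every heart. It read 5.27, 5.08, 5.0 and 5.03 in nulliparous and 4.72, 4.73, 4.53 and 4.84 in lactating wild-type hearts. The knockout arrays gave 5.44, 5.27, 5.20 and 5.0 before and 4.80, 4.79, 4.80 and 5.0 during lactation. Lactating arrays were lower without overlap in wild-type mice and met in knockout mice, where the overlap rests on nulliparous replicate 4. Without that array the knockout groups did not overlap and differed by -0.45. Genotypes overlapped in both states. The lactation differences were alike in size, -0.39 ± 0.10 (SE) in wild-type and -0.38 ± 0.10 in knockout mice, while the genotype differences were 0.13 and 0.15. With each array centred on its median the lactation differences were -0.21 and -0.195.

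Plin4 encodes perilipin 4, a coat of small nascent droplets in fat and striated muscle. Levels were 6.55, 6.73, 7.58 and 6.15 in nulliparous and 6.70, 6.58, 6.05 and 6.42 in lactating wild-type hearts. They were 7.22, 7.45, 6.71 and 6.51 in nulliparous and 6.36, 5.87, 6.08 and 5.73 in lactating knockout hearts. Only the knockout groups were apart from each other, with a lactation difference of -0.96 ± 0.28 (SE), or 1.95-fold, and of -1.12 without nulliparous replicate 4. The genotype differences, 0.22 ± 0.28 and -0.43 ± 0.28, lay within a spread that reached an SD of 0.60 in nulliparous wild-type hearts, and the first was 0.70 on slide 1, -0.26 on slide 2 and 0.37 without nulliparous knockout replicate 4.

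Fabp4 encodes the fatty acid binding protein of adipocytes, macrophages and capillary endothelium. It read 7.95, 7.89, 8.0 and 7.75 in nulliparous and 7.90, 8.22, 7.51 and 8.04 in lactating wild-type hearts. Knockout hearts gave 8.29, 8.08, 7.96 and 7.93 before and 7.75, 7.62, 7.67 and 7.99 during lactation. All 4 groups overlapped. The genotype differences were 0.16 ± 0.14 (SE) and -0.16 ± 0.14, and the latter was -0.37 on slide 1 and 0.05 on slide 2. The 8 endothelial markers were above background on all 16 arrays. Their summed linear level was 143 to 199 in lactating wild-type and 187 to 236 in lactating knockout hearts, after 220 to 269 and 213 to 324 in nulliparous ones. Egfl7 made most of that sum. In lactation limma called 2 of the 8 higher and 1 lower in wild-type, and 3 higher and 1 lower in knockout mice. Macrophage markers summed to 40.8 to 47.8 in lactating wild-type and 45.5 to 55 in lactating knockout hearts, after 21.5 to 25.5 and 19.4 to 37.8 in nulliparous ones. The part of either cell type in the Fabp4 level was not tested.

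Within a group, several but not all of the dim genes ranked the mice alike. Nulliparous wild-type replicate 4 was the highest of its group for 5 of the 7 but the lowest for Pck1. Replicate 3 of that group was the lowest for 4 but the highest for Pck1. In lactating wild-type mice Pck1 was highest in replicate 1 and lowest in replicate 2. Lactating wild-type replicate 4 was the highest of its group for 5 of the 7 (Adipoq, Retn, Cidec, Plin1 and Car3), and replicate 3 the lowest for 5. Among lactating knockout mice, replicate 3 was highest for 5 and replicate 4 lowest for 6. Nulliparous knockout replicate 4 was highest for Adipoq, Retn, Cfd and Pck1, and exceeded the mean of its 3 group mates by 1.11, 0.84, 1.26 and 1.35, but by 0.06 for Cidec and 0.20 for Car3. After each group's mean was subtracted, Pearson's r with Adipoq over the 16 arrays was 0.763 for Plin1, 0.648 for Cidec, 0.563 for Cfd, 0.549 for Car3, 0.467 for Retn and 0.321 for Pck1. It was -0.068 for Cidea, -0.075 for Fabp4 and -0.28 for Plin4. These arrays share the scaling of each array, and values near background carry its noise. The non-member genes of highest r on the same deviations were Fbxo9 (0.855), Trmt12 (0.842), Zfp763 (0.834), Bms1 (0.832), Wdr5b (0.818), AW146154 (0.817), Mmadhc (0.81) and Gbp2 (0.799). Over the levels themselves their r with Adipoq was -0.092 to 0.368. For the 6 other dim genes it was 0.836 to 0.955, a range that their choice by these group values fixes.

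**Figure D3:**
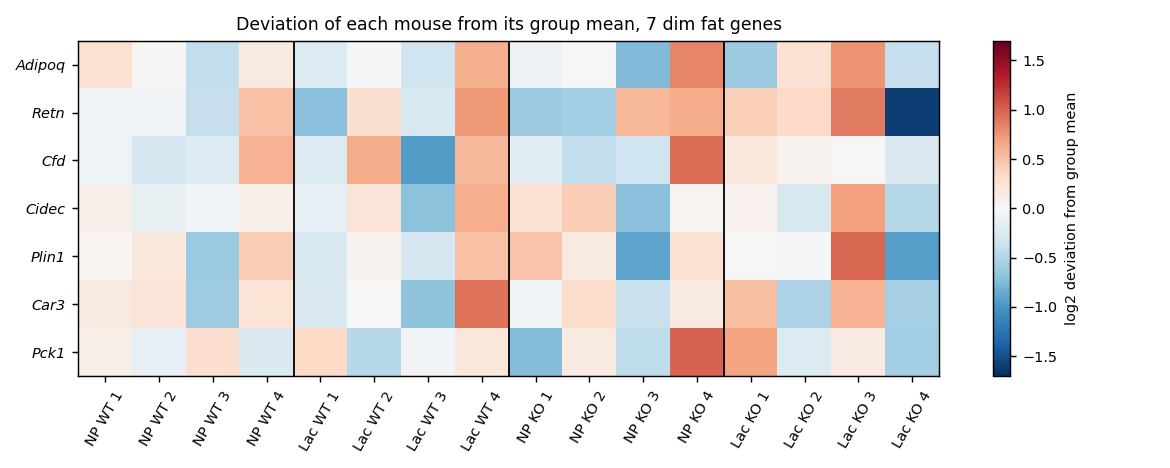
Deviation of each mouse from its group mean for the 7 dim genes, on a log2 colour scale with red above and blue below the mean. Columns are the 4 replicates of each group. Nulliparous knockout replicate 4 is red for Adipoq, Retn, Cfd and Pck1, and lactating knockout replicate 4 is blue in every line.

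To set the 10 genes beside their pathways, 65 further genes in 5 lists were examined, of which 56 passed the filter (Pparg, Cebpa, Ebf2, Lipe and Dgat2 are in 2 lists each). Between genotypes limma called 0 of the 56 in nulliparous and 0 in lactating mice, and 0 for the interaction, taking 0.05 as the threshold of p after Benjamini-Hochberg adjustment over the 14063 genes. At an unadjusted p under 0.05 the counts were 3 higher and 0 lower in nulliparous mice, 1 higher and 4 lower in lactating mice, and 1 higher and 7 lower for the interaction. With normexp correction or array weights, 1 gene was called higher in lactating knockout mice. The median genotype difference of the 56 was 0.12 in nulliparous and -0.09 in lactating mice. In lactating mice their differences ran from -0.85 ± 0.46 (SE) for Pdk4 (limma's adjusted p = 0.637) to 1.18 ± 0.28 for Dio2 (limma's adjusted p = 0.130). The dim genes, at -4.67 to -2.20, lay below that range. They were chosen with this contrast known and are not in the lists, so nothing is read from that gap.

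**Figure D4:**
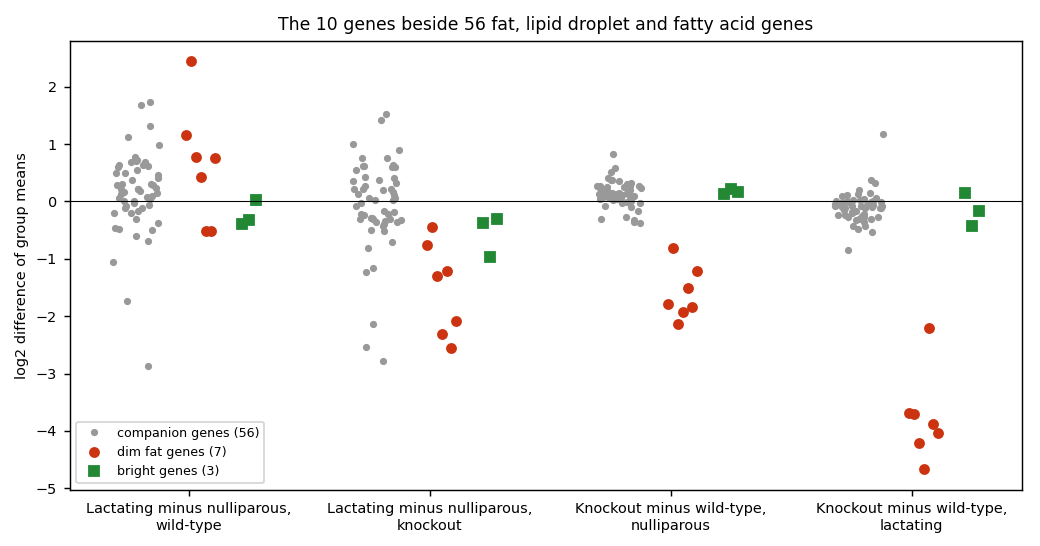
Log2 difference of group means in 4 pairwise comparisons for the 56 companion genes (grey), the 7 dim genes (red) and the 3 bright genes (green). For knockout minus wild-type in lactating mice the grey points run from -0.85 to 1.18 and the red points from -4.67 to -2.20. The red genes were chosen with these values known.

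White fat identity was read in part beyond the 10 genes. Of 20 genes listed, 14 passed the filter, each above background on all 16 arrays. The leptin gene Lep, Slc7a10, Acvr1c and Lgals12 were below background on all 16 arrays, while Adrb3 and Nnat were above it on 6 and 8. Mrap and Trarg1, adipocyte genes for melanocortin receptor traffic and for glucose transporter vesicles, were above background on every array. Mrap had group means of 1.68 ± 0.18, 2.23 ± 0.32, 1.37 ± 0.82 and 2.38 ± 0.13 (SD, n = 4) in nulliparous and lactating wild-type and nulliparous and lactating knockout hearts, and Trarg1 of -2.66 ± 0.29, -2.54 ± 0.30, -2.31 ± 0.21 and -2.62 ± 0.35. Their knockout differences in lactating mice were 0.15 ± 0.30 and -0.09 ± 0.20 (SE). The summed linear level of Lep, Adrb3, Mrap, Trarg1, Slc7a10 and Acvr1c was 3.68 to 6.13 in lactating wild-type and 5.06 to 5.91 in lactating knockout hearts, and 3.03 to 3.93 and 1.42 to 3.95 in nulliparous ones. Mrap alone made 78.3% to 96.2% of that sum on an array, so it adds little to Mrap's own level. Limma called 0 of the 14 tested between genotypes in either state, and 0 had an unadjusted p under 0.05. Dgat2, Aqp7, Cdo1, Sfrp5 and Lipe, 5 of the 14, had their lowest mean in lactating knockout hearts. In these 5 both lactating means lay below both nulliparous means, while in the dim genes both knockout means were lowest. The share of all genes with their lowest mean in that group was not counted, so nothing is read from the 5.

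Limma called 18 of the 56 genes higher and 8 lower during lactation in wild-type mice, beside 31.8% and 18.5% of all genes, and 13 higher and 11 lower in knockout mice, beside 25.5% and 18.6%. Without nulliparous knockout replicate 4 the knockout counts were 14 and 14. Such shares lie near the background. Within slide 2 alone, with 2 arrays a group, 1 and 0 of the 56 were called, and 86 and 0 of all genes. Within slide 1 the calls below were lost for Cdo1 and Slc27a1 in wild-type, Cebpa in both and G0s2 and Mrap in knockout mice (adjusted p from 0.0513 to 0.358). During lactation limma called 3 of the 14 white fat genes higher and 3 lower in wild-type mice, and 3 higher and 2 lower in knockout mice. Sfrp5, a secreted Wnt inhibitor of fat, fell by 2.86 ± 0.29 (SE, limma's adjusted p = 4.11e-05) in wild-type and by 2.78 ± 0.29 (adjusted p = 0.000437) in knockout mice. Thrsp, a lipogenic nuclear protein, rose by 1.31 ± 0.25 in wild-type mice (limma's adjusted p = 0.000895) and by 0.75 ± 0.25 in knockout mice (adjusted p = 0.0272). The latter call was lost when any of the nulliparous knockout replicates 1, 2 and 3 or of the lactating knockout replicates 1, 2 and 4 was left out (adjusted p from 0.0539 to 0.0854). Mrap rose by 1.01 ± 0.30 in knockout mice (limma's adjusted p = 0.0140, and 0.0584 in a fit of the knockout groups alone). Cdo1, which oxidises cysteine, fell by 1.05 ± 0.39 and by 1.22 ± 0.39 (limma's adjusted p = 0.0360 and 0.0202). The wild-type call for Cdo1 was lost without nulliparous replicate 1, 2 or 3 or lactating replicate 1 or 3 (adjusted p from 0.0561 to 0.1015), with quantile normalization (0.0522) and with median centring (0.0637). The knockout call was lost without nulliparous replicate 1 or 2 or lactating replicate 2 (adjusted p from 0.0670 to 0.0689) and in a fit of the knockout groups alone (0.0582).

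Brown fat's defining genes Ucp1, Elovl3 and Lhx8 were below background on all 16 arrays, and 9 of the 12 listed genes passed the filter. Limma called 1 higher and 2 lower in wild-type lactation and 2 higher and 3 lower in knockout lactation. Kcnk3, a potassium channel, rose by 0.72 ± 0.10 and 0.60 ± 0.10 (SE, limma's adjusted p = 0.000130 and 0.000791). Ppargc1a, a coactivator of mitochondrial genes in muscle as in fat, fell by 0.60 ± 0.19 and by 1.17 ± 0.19 (limma's adjusted p = 0.0155 and 0.000670), and the wild-type difference was -0.12 over the mean of its probes (adjusted p = 0.570) and -0.41 with median centring (adjusted p = 0.0894). Dio2, which activates thyroid hormone, rose by 1.42 ± 0.28 in knockout mice (limma's adjusted p = 0.00172). Ebf2, an early brown fat factor, fell by 0.68 ± 0.18 in wild-type mice (limma's adjusted p = 0.00521). Cox8b, a cytochrome oxidase subunit that heart muscle makes, fell by 0.36 ± 0.10 in knockout mice (limma's adjusted p = 0.00964), and the difference was -0.036 under quantile normalization (adjusted p = 0.810) and -0.18 with median centring (adjusted p = 0.163). Beside these genes the bright Cidea had lactation differences of -0.39 and -0.38.

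All 18 genes of droplet coating, storage and lipolysis that heart muscle also makes passed the filter. In lactation limma called 8 higher and 1 lower in wild-type and 7 higher and 2 lower in knockout mice. Lpin1, a phosphatidate phosphatase of triglyceride synthesis, rose by 1.68 ± 0.29 and 1.53 ± 0.29 (SE, limma's adjusted p = 0.000437 and 0.00142). Cideb, the liver relative of Cidea and Cidec, rose by 1.73 ± 0.29 and 0.90 ± 0.29 (limma's adjusted p = 0.000327 and 0.0204), the second call being lost when nulliparous replicate 2, nulliparous replicate 3 or lactating replicate 2 of the knockout was left out (adjusted p from 0.0517 to 0.0725). Fitm1, a droplet-forming protein of muscle, rose by 0.98 ± 0.26 and Abhd5, the activator of triglyceride lipase, by 0.71 ± 0.13 in wild-type mice (limma's adjusted p = 0.00603 and 0.000699). Bscl2, which encodes seipin, rose by 0.76 ± 0.20 in knockout mice (limma's adjusted p = 0.00786). G0s2, an inhibitor of the same lipase, rose by 0.62 ± 0.22 there (limma's adjusted p = 0.0359), a call lost when any of the nulliparous knockout replicates 1, 2 and 3 or of the lactating ones 3 and 4 was left out (adjusted p from 0.0595 to 0.115), with no filter (0.0606) and in a fit of the knockout groups alone (0.0711). Perilipin 5, the droplet coat of heart muscle, kept group means of 6.10 to 6.38, and its knockout difference in lactating mice was -0.24 ± 0.18.

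Genes that bring fatty acids through capillaries into heart muscle all passed the filter, 10 of 10, and limma called 4 higher and 2 lower in wild-type and 1 higher and 4 lower in knockout lactation. Angptl4, an inhibitor of lipoprotein lipase, fell by 1.73 ± 0.40 and by 2.54 ± 0.40 (SE, limma's adjusted p = 0.00280 and 0.000649). Pdk4, the kinase that spares glucose when fatty acids are burnt, fell by 2.14 ± 0.46 in knockout mice (limma's adjusted p = 0.00264). Fabp5, the epidermal and endothelial relative of Fabp4, rose by 0.78 ± 0.15 and 0.63 ± 0.15 (limma's adjusted p = 0.000895 and 0.00452). Gpihbp1, which holds lipoprotein lipase on capillaries, rose by 0.64 ± 0.18 in wild-type mice (limma's adjusted p = 0.00837). Slc27a1, a fatty acid transporter, fell by 0.49 ± 0.16 and by 0.70 ± 0.16 (limma's adjusted p = 0.0222 and 0.00389). In wild-type mice that call was lost without nulliparous replicate 3 or lactating replicate 2 or 4 (adjusted p from 0.0602 to 0.0738) and with median centring (0.160).

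The 10 transcription factors of fat cell formation all passed the filter, with 3 called higher and 1 lower by limma in wild-type and 1 higher in knockout lactation. Cebpa rose by 0.63 ± 0.15 and 0.61 ± 0.15 (SE, limma's adjusted p = 0.00332 and 0.00508). With normexp correction its differences were 0.19 and 0.12 and neither was called (adjusted p = 0.0653 and 0.236). Cebpd rose by 1.12 ± 0.31 and Srebf1, the sterol-regulated activator of lipogenesis, by 0.70 ± 0.17 in wild-type mice (limma's adjusted p = 0.00885 and 0.00414). The Srebf1 call was lost with normexp correction (adjusted p = 0.201). Pparg, the nuclear receptor that drives fat cell differentiation, was above background on all 16 arrays, and its knockout difference in lactating mice was -0.08 ± 0.16. Cebpa, the C/EBP factor of mature fat cells, had a knockout difference of -0.003 ± 0.15 there.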

How the data were processed

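Ventricular RNA of 16 mice (200 ng each) was labelled with Cy3 and hybridised to one-colour Agilent arrays, per the labels' protocols. The authors' deposited scanner files hold spot intensity on a linear scale, read by Agilent Feature Extraction (version 10.7.3.1) per the submitters' processing notes and the headers, with background subtraction and no scaling between arrays. The deposited log2 table, whose scale and centring the sources used here do not give, matched the log2 signal less its array's 75th percentile and less the nulliparous wild-type mean (r = 1 over 24613 bright probes on each array, median differences -0.0261 to 0.0187) and was an alternative. Its column medians were -0.382 to 0.0318, so its scale, centring and direction are known.

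Control spots and outlier values were left out, spots of a probe averaged, and the 75th percentile of each array's probes subtracted on the log2 scale. RefSeq accessions named 27793 of 28167 probes with such an accession through gene names of assembly GRCm38.p6, while the array design uses mm9, so no gene coordinates are given. The brightest probe stood for a gene, and 14063 genes that were well above background in every mouse of some group were fitted (7091 were removed). Limma 3.58.1 in R 4.3.3 (data.table, version 1.17.8) fitted 4 group means over 16 arrays with 12 residual degrees of freedom, 5 contrasts and Benjamini-Hochberg adjustment over all genes, and was tested on simulated data. Figures used Python 3.11.15 and matplotlib 3.10.9. The number of arrays limits the precision. No probe was saturated.

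Replicate numbers fell on slide 1 (1 and 2) and slide 2 (3 and 4), each of 8 arrays and 1 scan; every group kept 1 array column on both slides, so position and group cannot be told apart. Same-numbered arrays did not deviate together (mean r of 0.048, over 0.1 in 8 of 24 pairs), so numbers were not treated as pairs.

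The 10 genes, the companion and marker lists and the rule for named genes were chosen with earlier results of these data known. The rule named the 10 genes on every array with all probes, the 4 called genes of largest change per companion list and comparison, the defining markers and the 8 genes most like Adipoq within groups. Alternatives were normexp background correction (offset 50, on the median spot signal), quantile normalization, median centring, a filter on all 16 arrays or none, a gene's mean probe level, only the groups compared, trend and robust eBayes, array weights, slide as a block, each slide alone, a replicate block, the deposited log2 values and leaving out every array in turn.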

Additional observations from a re-analysis of the deposited data

Results flagged for a closer look

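The lactation difference of Cidec was lower in knockout than in wild-type mice by an interaction of -2.75, from 0.44 in wild-type and -2.31 in knockout hearts, and that of Pck1 by -2.84, from 0.76 and -2.08. Both were flagged because their lactation differences were unlike between genotypes, and no test of either gene is read from that. The genes were chosen with their values known, so this is a description, and both lactating knockout levels are near background. With normexp correction the interactions were -0.88 and -0.952.

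In the 40 groups of 4 arrays checked for the 10 genes, 3 held an array far from the other 3, where chance gives about 1 group in 20. Cfd read 0.39 on nulliparous knockout replicate 4, with a gap of 0.832 of the group's range. Car3 read 0.33 on nulliparous wild-type replicate 3, with a gap share of 0.898. Cidea read 5.0 on lactating knockout replicate 4, with a gap share of 0.94.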

How the results depend on the processing

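The 7 dim genes kept the sign of both genotype differences under every alternative read gene by gene. Trend and robust eBayes, array weights, the slide and replicate blocks and the fit of only the groups compared were not read that way. Normexp correction shrank the size of the differences: in lactating mice to between -3.55 (Cfd) and -0.59 (Plin1), and in nulliparous mice to between -1.82 (Cfd) and -0.20 (Retn). The median over the 10 genes with normexp was -1.426 for genotype in lactating mice, -0.344 in nulliparous mice and -0.905 for the interaction. Under the filter on all 16 arrays only 4 of the 10 genes were left, 3 of them the bright ones, and the medians were -0.296, 0.146 (reversed) and -0.487. Of the companion genes, normexp and array weights each called 1 between genotypes in lactating mice. Within slide 2, with 2 arrays a group, the companions called in lactation were 1 in wild-type and 0 in knockout mice. Leaving out each array in turn gave 23 to 27 and 18 to 28 companions called in lactation in wild-type and knockout mice. Of 1020 named companion results under alternatives, 941 stayed called, 79 lost the call and 0 changed sign. The calls between genotypes over all genes were most sensitive to array weights, 235 against 14 in nulliparous and 204 against 28 in lactating mice, and within slide 2 they were 12 and 4. With normexp 44 genes were called in lactating mice and with no filter 17. Median centring split those 22 calls into 11 higher and 11 lower, against 9 and 19. The cause of these changes was not tested. With the replicate block the companions called in lactation were 24 (17 higher, 7 lower) in wild-type and 24 (12 and 12) in knockout mice, with 0 between genotypes, and the wild-type call of Cdo1 was lost (adjusted p = 0.0631). The fit of only the groups compared could not be made for the interaction. Values under about -4 are limited by background rather than by the number of arrays. On nulliparous arrays, where the lowest level well above background was as high as -3.57, some readings above -4 are limited as well.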

Other observations

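Only 6 of the 14063 genes had all 8 knockout arrays below all 8 wild-type arrays, and the one outside the 10 genes was Cyp2e1, a cytochrome P450 that is named here after its values were seen. Its lowest wild-type level was -1.28 and its highest knockout level -1.38, and its Pearson's r with Adipoq was 0.903 over the 16 arrays and 0.40 on deviations from group means. Without nulliparous knockout replicate 4, Cxcl14 separated as well. Next after Cyp2e1 in r over the 16 arrays came Pltp (0.825), Lrtm1 (0.808) and Stk36 (0.79), with 0.406, 0.521 and 0.275 within groups.

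Mesothelial and epicardial markers, the cells that cover the heart's surface, had a summed linear level of 1.12 to 1.94 on 3 nulliparous wild-type arrays (an outlier value of Wt1 leaves no sum for replicate 3), 3.05 to 7.31 in lactating wild-type, 2.1 to 3.29 in nulliparous knockout and 3.92 to 4.54 in lactating knockout hearts. Limma called 3 of the 3 tested higher in wild-type and 2 in knockout lactation, Wt1 without that array, and 0 between genotypes in either state. Upk1b was below background on all 16 arrays. Fibroblast markers summed to 317 to 368 in lactating wild-type and 313 to 394 in lactating knockout hearts. The brown fat markers summed to 2.37 to 2.93 and 2.79 to 3.5, the liver markers to 0.448 to 0.665 and 0.332 to 0.751, and the mammary and milk markers to 0.257 to 0.425 and 0.248 to 0.401, with the caseins Csn1s1, Csn2 and Csn3 and Wap below background on all 16 arrays. Atrial markers summed to 409 to 758 and 478 to 1140, and 198 to 360 and 223 to 719 in nulliparous mice. Nppa made most of that sum and had higher means in lactation, while Myl7, Sln and Myl4 had lower means in both genotypes. Of these 4, limma called 1 higher and 2 lower in wild-type and 1 higher and 3 lower in knockout lactation. The part of these cell types in the differences of the dim genes was not tested.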
